A study of Mus musculus with 16 samples.

Results

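The 10 circadian clock genes Arntl, Per1, Per2, Per3, Cry1, Cry2, Nr1d1, Nr1d2, Dbp, and Tef were followed in the skeletal muscles of 16 mice. They were taken by gene name from the mRNA table, in which 23235 gene names are listed, and the counts of their 48 transcripts were added up per gene. All 10 were among the 15364 genes that passed the filter on low counts.

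The study compared male C57BL/6J mice in 4 groups of 4 mice, each mouse with 1 RNA-seq library. The mice were 6 weeks old at the start. The control group received the normal diet, and the HFD group a high-fat diet with 60% fat, for 8 weeks before the treatments began. The HFD + RSV group received the same diet and then resveratrol, a plant polyphenol, for 6 weeks, and the HFD + MET group received the diet and then metformin, a glucose-lowering drug, for 6 weeks. The labels give neither the muscle sampled nor the time of day of collection. According to the study's methods, some mice of each group were injected with insulin before collection, and which of the sequenced mice these were is not known here. The part of either in the spread between mice was not tested. The labels speak of retinas in the RNA extraction. In the 16 libraries, the summed FPKM of 10 muscle fibre genes was 24600 to 36000, and no gene of the retina list, of which 5 of 8 were in the table, had more than 29 counts in any mouse.

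The mammalian clock is a loop of transcription and repression. The protein of Arntl (BMAL1) pairs with CLOCK or NPAS2 and activates genes through E-box elements, among them the Per and Cry genes, whose proteins repress that activation, and the Nr1d genes, whose proteins (REV-ERB) repress Arntl. Dbp and Tef encode PAR bZIP factors that carry the rhythm to output genes through D-box elements. Arntl is therefore known to peak out of phase with Dbp, the Nr1d genes, and the Per genes, and skeletal muscle has such a clock of its own, which drives genes of glucose and lipid use.

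In the GRCm38 build, the transcripts of the activator lay with Arntl at chr7:113207465-113314126 (plus strand). The repressors lay with Per1 at chr11:69095217-69109960 (plus strand), Per2 at chr1:91415982-91459324 (minus strand), Per3 at chr4:151003652-151044665 (minus strand), Cry1 at chr10:85131700-85185064 (minus strand), Cry2 at chr2:92403646-92434043 (minus strand), and the REV-ERB genes with Nr1d1 at chr11:98767932-98775333 (minus strand) and Nr1d2 at chr14:18204054-18239127 (minus strand). The output factors lay with Dbp at chr7:45705088-45710203 (plus strand) and Tef at chr15:81802421-81826861 (plus strand). Counts cover whole transcripts, with exons and untranslated regions together.

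The elements through which these genes are regulated were looked up in RefSeq promoter windows of GRCm38.p6, which hold 250 bases before and 50 after a gene's start. Windows were found for 9 of the 10 genes, 12 windows in all, and not for Per2. The stretches with a match are shown because these are the elements named above. The windows of Cry2, Nr1d1, Nr1d2, and Dbp held no match to any element searched. The E-box CACGTG was searched on both strands and was found in 7.15% of the 32851 windows searched, which do not cover every chromosome. It was present in windows of Per1, Cry1, and Tef, in capitals below, at chr11:69098748-69098823 (plus strand), chr10:85185074-85185149 (minus strand), and, in both Tef windows, chr15:81802511-81802586 and chr15:81811241-81811316 (plus strand).
Per1: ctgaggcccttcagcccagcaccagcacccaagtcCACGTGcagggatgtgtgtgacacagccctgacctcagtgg
Cry1: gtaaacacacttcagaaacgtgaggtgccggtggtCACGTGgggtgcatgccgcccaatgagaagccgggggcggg
Tef, first window: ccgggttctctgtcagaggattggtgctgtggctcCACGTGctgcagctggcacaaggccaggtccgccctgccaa
Tef, second window: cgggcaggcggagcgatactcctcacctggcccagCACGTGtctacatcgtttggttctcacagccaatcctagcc

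The D-box was searched as TTATGTAA or TTACGTAA on both strands and was found in 1.06% of the windows searched. The Per3 window held 2 D-boxes, at chr4:151044781-151044905 on the minus strand, and the letters of both are in capitals. The ROR element, which REV-ERB and ROR receptors share, was searched as TAGGTCA or TGGGTCA and was found in 6.45% of the windows searched. It lay after the start in an Arntl window, at chr7:113207530-113207559 on the plus strand. The cAMP response element TGACGTCA, found in 1.79% of the windows searched, was not among these letters in any window of the 9 genes.
Per3: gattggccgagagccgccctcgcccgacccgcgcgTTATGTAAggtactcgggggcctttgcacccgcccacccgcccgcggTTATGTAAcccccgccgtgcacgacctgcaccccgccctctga
Arntl: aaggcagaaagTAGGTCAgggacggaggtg

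Total counts per mouse in both tables ranged from 20281801 to 34021101, and each clock gene had between 203 and 7614 counts in a mouse. The common biological coefficient of variation over all genes was 0.261. Levels are given as CPM, counts relative to the TMM-scaled library size, for comparisons between mice, and as FPKM, which also divides by transcript length, for comparisons between genes. By mean FPKM over the 16 mice, Tef was at 64.9, Nr1d2 at 46.4, Nr1d1 at 39.5, Dbp at 22.0, Per1 at 21.1, Cry2 at 15.4, Arntl at 9.30, Per3 at 9.10, Cry1 at 4.99, and Per2 at 3.87. The ranges over mice of all neighbours in this order overlapped. Dbp was at 6.23 FPKM in its lowest mouse and at 43.6 FPKM in its highest.

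**Figure D1:**
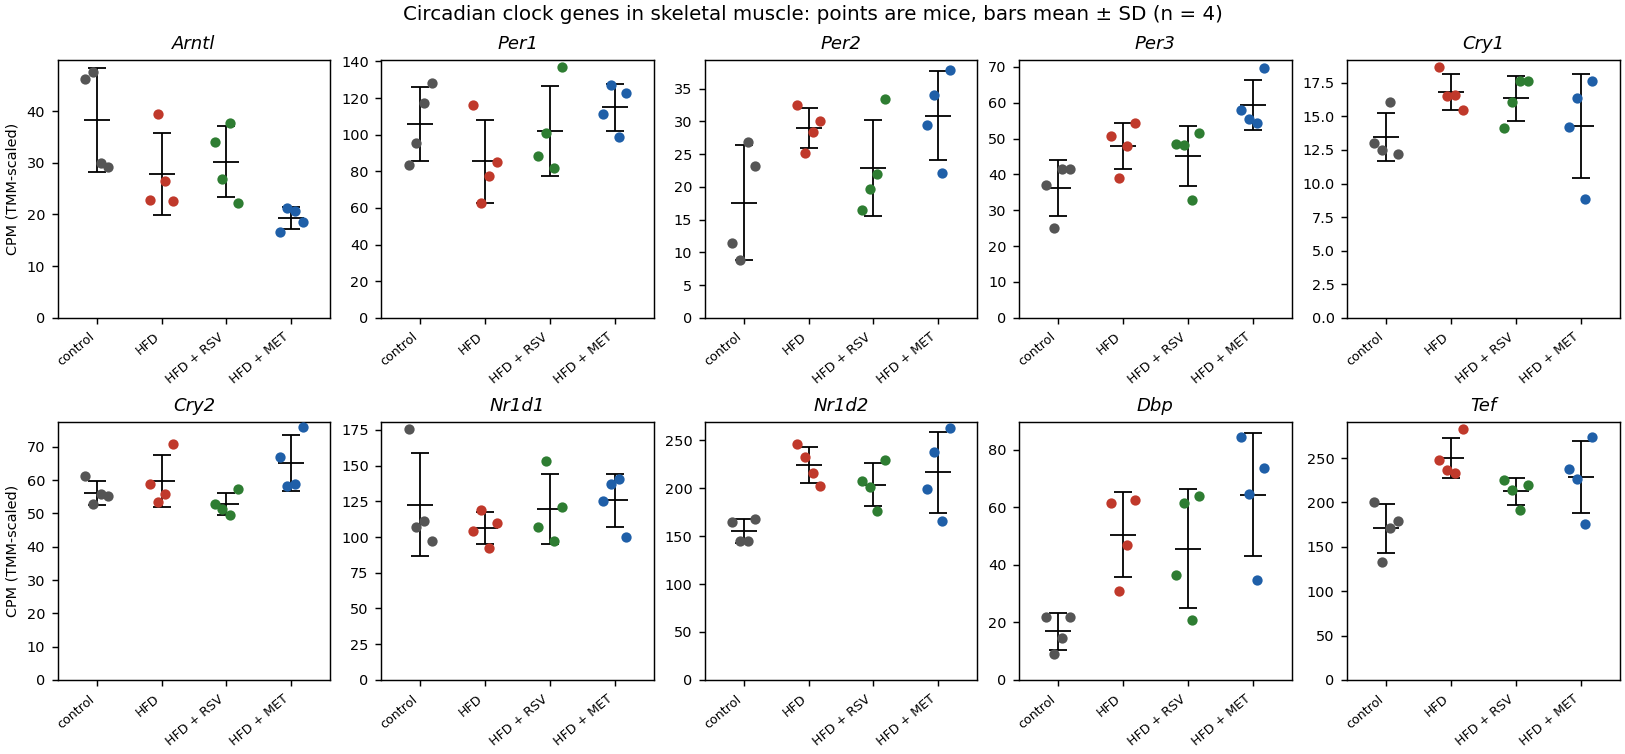
CPM (TMM-scaled, vertical axis from 0) of each clock gene in each mouse, by group on the horizontal axis, with the mean ± SD of 4 mice. Dbp is below 23 CPM in the 4 control mice and above 30 CPM in the 4 HFD mice, and Arntl is lowest in the HFD + MET group.

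The question of the first comparison was what the diet changed. Dbp, an output factor of the clock, was at 21.9, 8.94, 14.6, and 22.0 CPM in the 4 control mice and at 61.3, 31.0, 46.9, and 62.4 CPM in the 4 HFD mice. The groups did not overlap, and the mean rose from 16.9 ± 6.31 to 50.4 ± 14.7 CPM (SD, n = 4 each). The log2FC was 1.58 (SE 0.39, adjusted p = 0.0478, edgeR quasi-likelihood test), and Dbp was the 1 clock gene of 10 that passed an adjusted p of 0.05, against 2.43% of all 15364 genes. The call rested on most of the mice: the adjusted p was between 0.0208 and 0.143 when 1 mouse was left out, and it held without control 1, HFD + RSV 3, HFD + MET 3, or HFD + MET 4 but not without any of the other 12.

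Tef, the relative of Dbp, was at 200, 133, 171, and 179 CPM in the control mice and at 248, 237, 233, and 283 CPM in the HFD mice. Nr1d2, which encodes the repressor REV-ERB beta, was at 165, 145, 145, and 168 CPM in the control mice and at 246, 233, 216, and 202 CPM in the HFD mice. For both genes all HFD mice were above all control mice. The log2FC was 0.55 for Tef (SE 0.14, adjusted p = 0.0501) and 0.52 for Nr1d2 (SE 0.13, adjusted p = 0.0509), which by edgeR missed the threshold narrowly. By DESeq2, both were past it, with an adjusted p of 0.00421 for Tef and 0.0046 for Nr1d2. The share of all genes past it by DESeq2 is not given here. The exact two-sided permutation test of 4 mice against 4 gave 0.0286, the smallest p it can give, for each of Dbp, Tef, and Nr1d2. Of the 10 clock genes, these 3 had groups that did not overlap, against 18.3% of all genes in this comparison.

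The Per genes encode the proteins that repress Arntl and its partners. Per2 was at 11.4, 8.88, 26.9, and 23.2 CPM in the control mice and at 32.5, 25.1, 28.3, and 30.0 CPM in the HFD mice, and its log2FC was 0.72 (SE 0.31, adjusted p = 0.175, edgeR). Per3 had a log2FC of 0.40 (SE 0.17, adjusted p = 0.17, edgeR). Both had an unadjusted P under 0.05, with Dbp, Tef, and Nr1d2, so that 5 of 10 clock genes did, against 24.2% of all genes. Arntl was at 46.3, 47.6, 30.0, and 29.1 CPM in the control mice and at 22.9, 39.5, 26.5, and 22.7 CPM in the HFD mice, with a log2FC of -0.46 (SE 0.22, adjusted p = 0.213, edgeR). In both groups the values of Arntl were wide apart, and 1 HFD mouse lay inside the range of the controls. The log2FC was 0.32 for Cry1, -0.31 for Per1, -0.20 for Nr1d1, and 0.09 for Cry2, and the 2 groups overlapped for each. By the cut-offs of the study's methods, a P under 0.05 with an absolute log2FC above 1, taken here on the unadjusted P, Dbp alone of the 10 was called, against 4.94% of all genes.

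Other measures differed between these groups as well. The summed FPKM of 8 white adipocyte genes was 929 to 4610 in the control mice and 152 to 860 in the HFD mice. That of 6 brown adipocyte genes was 139 to 678 and 112 to 144. These 6 did not move together: the log2FC was -8.54 for Elovl3, -7.79 for Ucp1, -6.30 for Cidea, and -1.15 for Dio2. It was -0.04 for Cpt1b and 0.25 for Ppargc1a. Ucp1, the uncoupling protein of brown fat, was at 247 FPKM in control 3 and 55.7 FPKM in HFD + MET 3, and at most 22.3 FPKM elsewhere. Without these 2 mice, the log2FC was 1.52 for Dbp (adjusted p = 0.0628), 0.55 for Tef (adjusted p = 0.0372), 0.49 for Nr1d2 (adjusted p = 0.0373), and 0.42 for Cry1 (adjusted p = 0.046, edgeR), so Dbp was not called and the other 3 were. The share of all genes called without these 2 mice is not given here. In bulk muscle, fewer cells of a type and less RNA per cell cannot be told apart. The summed FPKM of 12 glucocorticoid targets was 804 to 1100 in the control mice and 567 to 720 in the HFD mice, and that of 12 immediate early genes 158 to 194 and 98.2 to 150. That of 6 endothelial genes was 91.8 to 125 and 67.1 to 81.5, and that of 8 slow fibre genes 31.4 to 1050 and 30.9 to 111. The part of these sums in the clock genes was not tested. All 4 HFD mice carry the leading label number 7, which no other mouse has, so what this number stands for and the diet cannot be told apart.

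**Figure D2:**
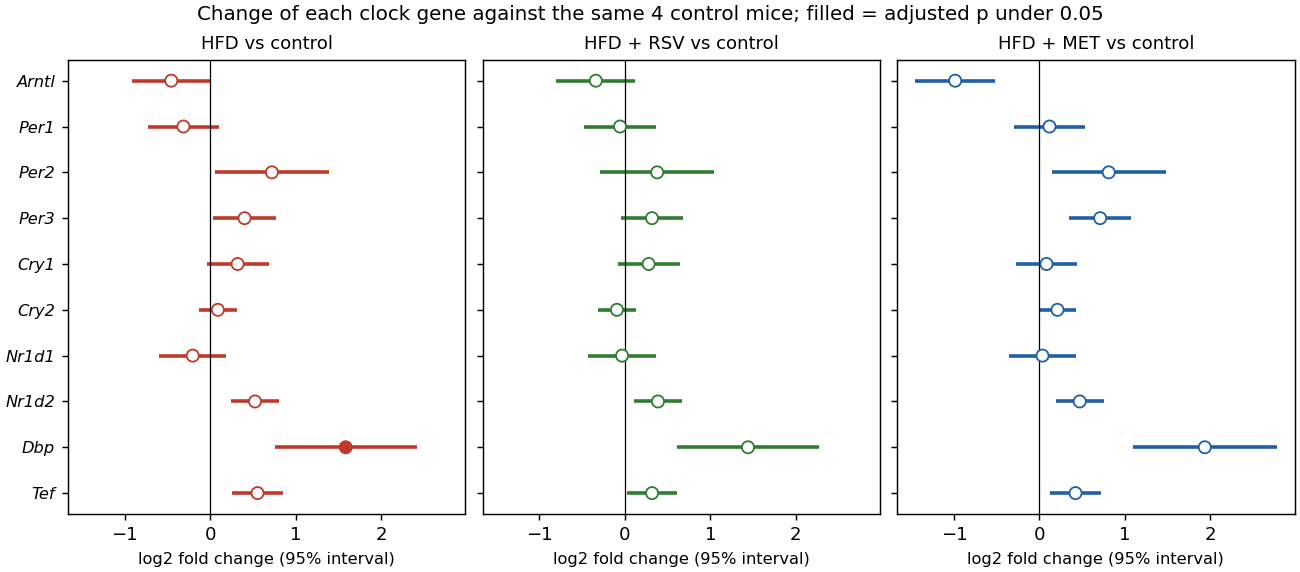
Log2 fold change (horizontal axis) with its 95% interval for each clock gene in the HFD, HFD + RSV, and HFD + MET groups against the same 4 control mice, from the edgeR fit to 16 mice. Dbp is the highest point in each panel, at 1.58, 1.44, and 1.94, and the filled point marks the 1 call at an adjusted p under 0.05.

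The comparison of HFD + MET with control shows the mice given metformin on the diet against those on the normal diet. Arntl was at 16.7, 21.2, 20.7, and 18.5 CPM in the HFD + MET mice, all below the lowest control mouse, with a log2FC of -0.99 (SE 0.22, adjusted p = 0.216, edgeR). Dbp was at 84.5, 64.5, 34.6, and 73.5 CPM, all above the highest control mouse, with a log2FC of 1.94 (SE 0.39, adjusted p = 0.17). Per3 was at 58.1, 55.5, 54.3, and 69.7 CPM, against 37.0, 25.1, 41.6, and 41.6 CPM in the control mice, with a log2FC of 0.71 (SE 0.17, adjusted p = 0.216). These 3 genes of 10 had groups that did not overlap, against 3.53% of all genes. The exact permutation p was 0.0286 for each. The control and HFD + MET mice share no leading label number. What this number stands for and the diet with metformin therefore cannot be told apart here.

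No clock gene passed an adjusted p of 0.05 by edgeR in HFD + MET against control, as none of all genes did (0%). At an unadjusted P under 0.05, 6 of 10 clock genes were past the threshold, against 9.50% of all genes. They were Arntl, Dbp, Per3, Nr1d2 (log2FC 0.47, SE 0.13), Tef (0.42, SE 0.14), and Per2 (0.81, SE 0.31). DESeq2 called 3 of the 10 at an adjusted p of 0.05, which were Arntl, Dbp, and Per3. The share of all genes that DESeq2 called is not given here, so these 3 cannot be set against it. By these cut-offs Dbp alone was called, against 1.63% of all genes. Without HFD + MET 3, a mouse with the adipocyte gene Adipoq at 279 FPKM against 2.37 to 126 FPKM in the other 3 of its group, edgeR called Dbp and Nr1d2. The log2FC was 0.21 for Cry2, 0.12 for Per1, 0.08 for Cry1, and 0.04 for Nr1d1.

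In HFD + RSV against control, which shares the control mice with the comparisons above, Dbp was at 36.6, 61.3, 20.9, and 63.7 CPM in the HFD + RSV mice. HFD + RSV 3 lay within the range of the control mice and the other 3 above it. The log2FC of Dbp was 1.44 (SE 0.39, adjusted p = 0.154, edgeR). Nr1d2 was at 208, 201, 176, and 230 CPM, all above the control mice, with a log2FC of 0.39 (SE 0.13, adjusted p = 0.204), and was the 1 clock gene of 10 whose groups did not overlap, against 11.3% of all genes. Tef had a log2FC of 0.32 (SE 0.14). No clock gene was called by edgeR at an adjusted p of 0.05, against 0.00651% of all genes. DESeq2 called Dbp, and the share of all genes it called is not given here. At an unadjusted P under 0.05 there were 3 clock genes, Dbp, Nr1d2, and Tef, against 15.8% of all genes, and by these cut-offs 1, Dbp, against 2.72%. The log2FC of Per2 was 0.38, of Per3 0.32, of Cry1 0.28, of Arntl -0.34, of Cry2 -0.09, of Per1 -0.06, and of Nr1d1 -0.03.

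Leading label number 1 is carried by 3 control mice and by HFD + RSV 1 and 2. Within it, Dbp was at 21.9, 8.94, and 14.6 CPM in the control mice and at 36.6 and 61.3 CPM in the HFD + RSV mice. Number 6 is carried by HFD + RSV 4 and HFD + MET 2, with Dbp at 63.7 and 64.5 CPM and Arntl at 22.3 and 21.2 CPM. The other numbers held mice of 1 group.

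The comparison of each treated group with HFD asks what the drugs changed in mice on the diet. With HFD + RSV, no clock gene was called by edgeR at an adjusted p of 0.05 or had an unadjusted P under 0.05, against 0% and 4.72% of all genes, and DESeq2 called none. The log2FC of the 10 genes lay between -0.34 (Per2, SE 0.31) and 0.26 (Per1, SE 0.20). Tef was at 225, 214, 191, and 220 CPM in the HFD + RSV mice, below all HFD mice, with a log2FC of -0.23 (SE 0.14, adjusted p = 1.00). It was the 1 gene of 10 whose groups did not overlap, against 4.20% of all genes. By these cut-offs none of the 10 was called, against 1.08% of all genes. The log2FC was 0.17 for Nr1d1, 0.12 for Arntl, -0.04 for Cry1, -0.08 for Per3, -0.14 for Nr1d2, and -0.18 for Cry2. That of Dbp was -0.14, with a 95% interval from -0.95 to 0.66, which leaves room for a change in either direction.

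With HFD + MET, Arntl was below the HFD mice in all 4 mice, with a log2FC of -0.53 (SE 0.22, adjusted p = 0.618, edgeR), and Per3 was above them in all 4, with a log2FC of 0.31 (SE 0.17, adjusted p = 0.636). These were the 2 clock genes without overlap, against 3.72% of all genes. Per1 was at 111, 127, 98.6, and 123 CPM, and at 116, 62.9, 77.4, and 85.1 CPM in the HFD mice, with a log2FC of 0.43 (SE 0.20, adjusted p = 0.618). Arntl and Per1 had an unadjusted P under 0.05, against 8.02% of all genes. No clock gene was called by edgeR at an adjusted p of 0.05, against 0.013% of all genes, and none by DESeq2 or by these cut-offs, against 1.76% of all genes for the latter. The log2FC was 0.35 for Dbp, 0.24 for Nr1d1, 0.12 for Cry2, 0.09 for Per2, -0.05 for Nr1d2, -0.13 for Tef, and -0.24 for Cry1.

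The treated groups were also compared with each other. Arntl was at 34.1, 26.9, 37.7, and 22.3 CPM in the HFD + RSV mice, all above the HFD + MET mice, with a log2FC of 0.65 (SE 0.22, adjusted p = 0.962, edgeR). Per3 and Cry2 were lower in all HFD + RSV mice, with a log2FC of -0.39 (SE 0.17) and -0.30 (SE 0.10). These 3 genes had groups without overlap, against 1.56% of all genes, and an unadjusted P under 0.05, against 4.68%. None of the 10 was called by edgeR at an adjusted p of 0.05, against 0% of all genes, by DESeq2, or by these cut-offs, against 0.97%. The log2FC was 0.20 for Cry1, -0.07 for Nr1d1, -0.08 for Nr1d2, -0.10 for Tef, -0.17 for Per1, -0.43 for Per2, and -0.49 for Dbp. In the test of any difference among the 4 groups, no clock gene passed an adjusted p of 0.05, against 0.117% of all genes, and 5 had an unadjusted P under 0.05, against 15.4%. These were Dbp (adjusted p = 0.133), Arntl (adjusted p = 0.167), Nr1d2 (adjusted p = 0.185), Per3 (adjusted p = 0.198), and Tef (adjusted p = 0.203, edgeR).

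The ratio of Dbp to Arntl sets an output gene against the activator known to run out of phase with it. As log2 of the FPKM ratio, it was between -1.39 and 0.22 in the control mice and between 0.30 and 2.11 in the HFD mice. It was between -0.20 and 2.14 in the HFD + RSV mice and between 1.40 and 2.94 in the HFD + MET mice. The control mice overlapped the HFD + RSV mice alone, through HFD + RSV 3. Within the HFD group, HFD 2, with the highest Arntl and the lowest Dbp of its group, was at 0.30, and the others were at 1.49 to 2.11.

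Relations between the genes over mice were tested on log2 CPM after the group means were removed, with 100000 permutations of mice within groups for each of the 45 pairs. After adjustment over the 45, 12 pairs passed 0.05. The share among pairs of other genes was not counted. Over 12058 genes with a mean log2 CPM of at least 1, the median absolute r was 0.20 with Arntl and 0.26 with Dbp. Arntl ran against the 3 Per genes and Dbp. The Pearson r of Arntl was -0.84 with Per1 (p = 0.00227, adjusted p = 0.015), -0.77 with Per3 (p = 0.00068, adjusted p = 0.015), -0.73 with Per2 (p = 0.00963, adjusted p = 0.0394), and -0.71 with Dbp (p = 0.00814, adjusted p = 0.0366, permutation tests). The Spearman rho of these 4 pairs was -0.84 (p = 0.00209), -0.76 (p = 0.00199), -0.76 (p = 0.0117), and -0.71 (p = 0.0159, permutation tests). Without the 2 mice farthest from the median of Arntl, r was -0.81 with Per1, -0.69 with Per3, -0.72 with Per2, and -0.60 with Dbp. The r of Arntl was -0.46 with Cry2, -0.37 with Tef, -0.21 with Cry1, -0.18 with Nr1d2, and 0.19 with Nr1d1, with adjusted p-values between 0.174 and 0.638 by permutation test, none past the threshold.

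The other 8 pairs were positive. Dbp rose and fell with Per3 (r = 0.81), Tef (r = 0.77), and Cry2 (r = 0.61). Tef did so with Cry2 (r = 0.77) and Per3 (r = 0.73). Per1 did so with Per2 (r = 0.72), Per3 with Cry2 (r = 0.63), and Per2 with Cry1 (r = 0.57). The adjusted p of these 8 was between 0.015 and 0.0474 by permutation test. By Spearman rho the adjusted p was under 0.05 for Arntl with Per1 and Per3, Per1 with Per2, Per3 with Cry2 and Tef, and Cry2 with Tef, and was between 0.0621 and 0.0834 for the other 6. Without the 2 mice farthest from the median of the gene named first in the pair, r stayed at 0.55 or above in the 8 positive pairs.

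Nr1d1, which encodes REV-ERB alpha, had no pair past the threshold, with r between -0.35 (Per2) and 0.25 (Dbp) and every adjusted p at 0.514 or above by permutation test. Its relative Nr1d2 had r of 0.64 with Tef, 0.63 with Cry1, and 0.57 with Dbp, none past the threshold. In a principal component analysis of the 10 genes, the first component held 52.3% of the variance. Its loadings were negative for Arntl (-0.35) and near 0 for Nr1d1 (-0.05), and were between 0.25 (Cry1) and 0.38 (Dbp) for the other 8. When the means of each leading label number within each group were removed, a choice made after seeing the data, 11 mice with 576 arrangements were left to compare. None of the 45 pairs then passed 0.05. The r of Arntl was -0.83 with Per1 (adjusted p = 0.151), -0.75 with Per3 (adjusted p = 0.177), -0.75 with Per2 (adjusted p = 0.0778), and -0.59 with Dbp (adjusted p = 0.318, permutation tests).

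**Figure D3:**
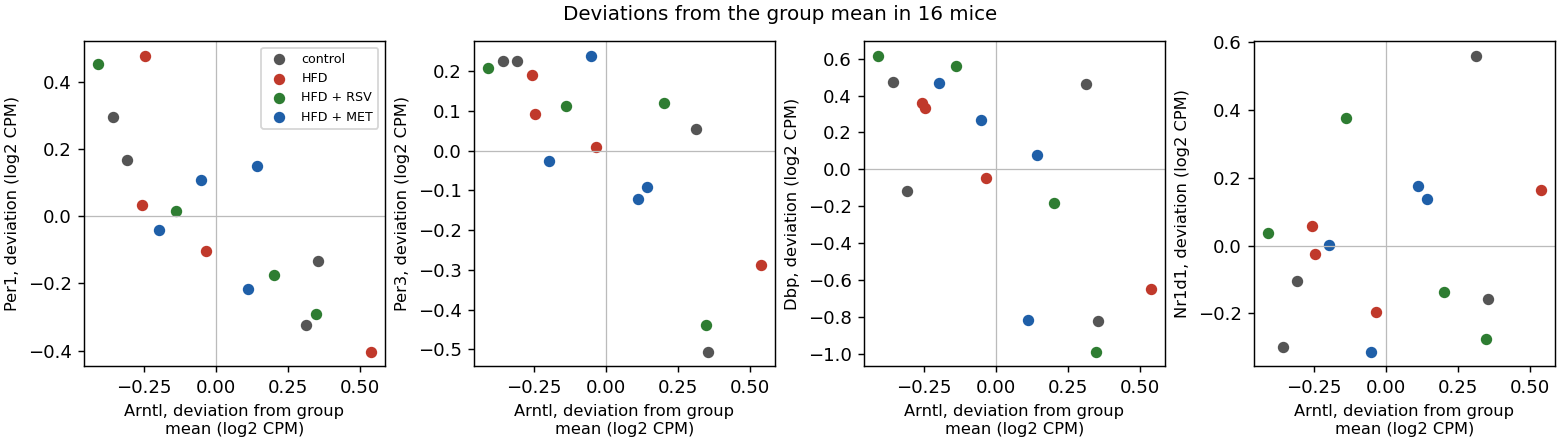
Deviation of each of 16 mice from its group mean in log2 CPM, for Arntl (horizontal axis) against Per1, Per3, Dbp, and Nr1d1 (vertical axes), coloured by group. The points fall from left to right for Per1 (r = -0.84), Per3 (r = -0.77), and Dbp (r = -0.71) and have no such trend for Nr1d1 (r = 0.19).

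Without control 3 and HFD + MET 3, the 2 mice highest in brown adipocyte genes, 1 of the 45 pairs passed 0.05, Cry2 with Tef (r = 0.76, adjusted p = 0.0202). The values of r were then -0.84 for Arntl with Per1, -0.75 with Per3, -0.71 with Per2, and -0.81 with Dbp, with adjusted p-values between 0.0587 and 0.0747 by permutation test. Leaving out a single mouse left between 4 and 15 pairs past the threshold, and the lowest count came without control 2. The r of Arntl with Per1 stayed between -0.88 and -0.79 in these 16 repeats. Where the group means were not removed, 16 pairs passed 0.05, and Arntl with Per1 (r = -0.57, adjusted p = 0.0536), Per1 with Per2 (r = 0.38, adjusted p = 0.25), and Per2 with Cry1 (r = 0.51, adjusted p = 0.0939, permutation tests) were not among them.

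**Figure D4:**
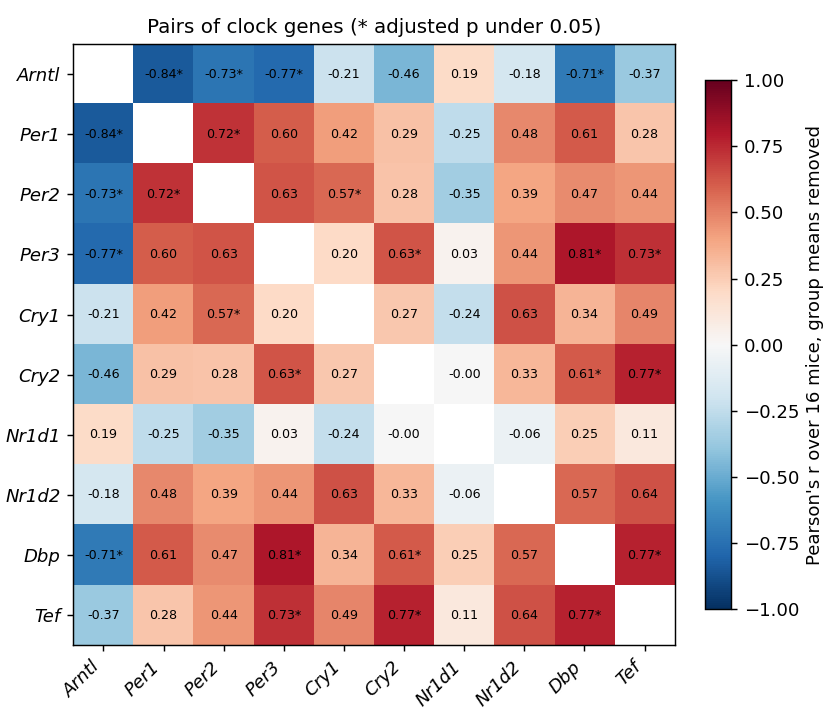
Pearson's r over 16 mice, group means removed, for each pair of clock genes (rows and columns), from -1 in blue to 1 in red, with a star at an adjusted p under 0.05. The row of Arntl is negative except with Nr1d1, and the row of Nr1d1 is pale throughout.

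Over 12058 genes with a mean log2 CPM of at least 1, the genes most like Dbp and Arntl were picked by r with the group means removed, as a description. Those most like Dbp were Ciart (r = 0.89), a clock repressor, 6430571L13Rik (0.86), Gm3200 (0.85), Rasd2 (0.84), and Usp2 (0.84), a deubiquitinase known as a clock output. Those most opposed to Dbp were Gm2058 (-0.84), Slc22a4 (-0.82), Ube2h (-0.82), Ypel2 (-0.81), and 4931406P16Rik (-0.81). Those most like Arntl were Zbtb10 (0.89), Elac2 (0.83), Lrrcc1 (0.82), Ypel2 (0.82), and Fat4 (0.80), and among those most opposed were Rbm3 (-0.89), a cold-inducible RNA-binding protein, Nsun5 (-0.84), Rpl36 (-0.81), and Arrdc2 (-0.80). The 16 mice share these libraries, and an absolute r above 0.8 was reached by 9 genes for Arntl and 21 genes for Dbp.

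Of 17 other genes of the clock, all tested, none passed an adjusted p of 0.05 by edgeR in any comparison. At an unadjusted P under 0.05 there were 4 of 17 in HFD against control, against 24.2% of all genes. In HFD + MET against control there were 6 of 17, against 9.50%, and in HFD + RSV against control 4, against 15.8%. There were 0 in HFD + RSV against HFD, against 4.72%, and 3 in HFD + MET against HFD, against 8.02%. HFD + RSV against HFD + MET had 3, against 4.68%. Npas2, which can stand in for CLOCK beside BMAL1, was at 4.32, 7.50, 5.47, and 3.28 CPM in the control mice and at 1.77, 2.70, 2.78, and 1.47 CPM in the HFD mice. In the HFD + MET mice it was at 1.54, 1.39, 1.61, and 0.826 CPM. Both groups were below all control mice, with a log2FC of -1.24 (SE 0.32, adjusted p = 0.0534) and -1.95 (SE 0.33, adjusted p = 0.0628, edgeR). Nfil3, the repressor that competes with Dbp for D-boxes, was at 36.8, 37.2, 32.8, and 29.9 CPM in the control mice and at 14.1, 17.4, 21.0, and 22.6 CPM in the HFD + MET mice, with a log2FC of -0.86 (SE 0.18, adjusted p = 0.191). Bhlhe41 (DEC2), a repressor at E-boxes, had a log2FC of 1.07 in HFD + RSV (SE 0.31, adjusted p = 0.166) and 0.96 in HFD + MET (SE 0.31, adjusted p = 0.316) against control. Over mice, r with Arntl was 0.66 for Npas2 and 0.73 for Nfil3, and r with Dbp was -0.75 and -0.70.

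**Figure D5:**
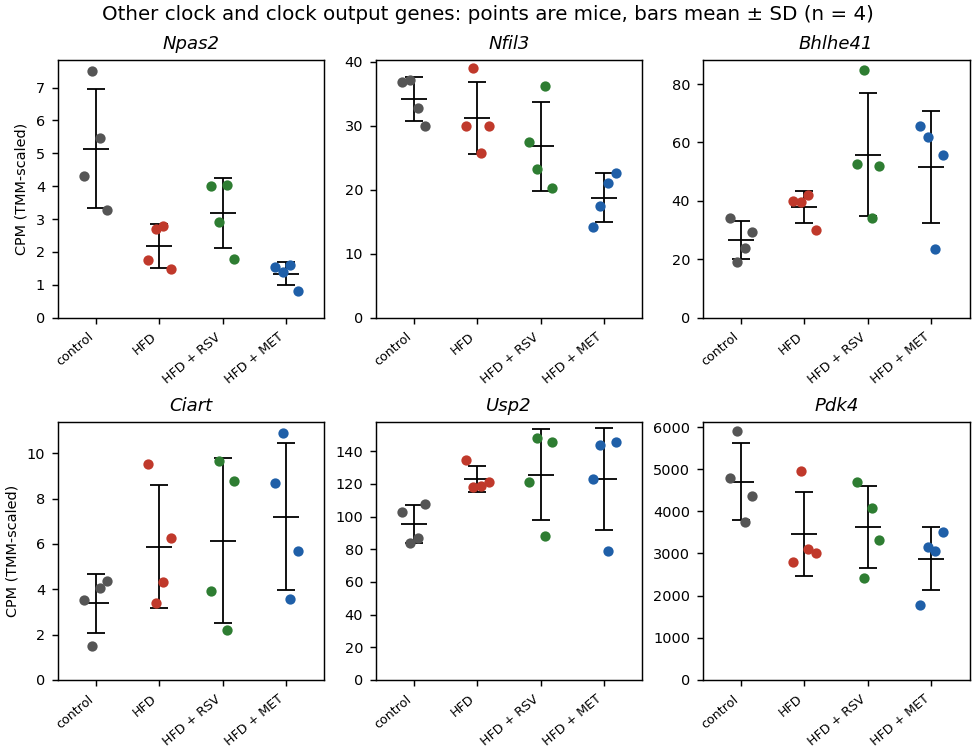
CPM (TMM-scaled, vertical axis from 0) of 4 other clock genes and 2 clock output genes in each mouse, by group, with the mean ± SD of 4 mice. Npas2 is lower in every HFD and HFD + MET mouse than in any control mouse, and Nfil3 is lowest in the HFD + MET group.

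Of 14 clock output genes, all tested, none passed an adjusted p of 0.05 by edgeR in any comparison, and 3 had an unadjusted P under 0.05 in HFD against control, against 24.2% of all genes. These were Dgat2 (log2FC -2.26, SE 0.57, adjusted p = 0.0534), an enzyme of triglyceride synthesis that adipocytes also express, Myod1 (0.82, SE 0.26, adjusted p = 0.0896), the myogenic factor, and Pdp1. Usp2 had a log2FC of 0.37 (SE 0.19). Pdk4, which restrains pyruvate use in mitochondria, had a log2FC of -0.44 (SE 0.26) in HFD and -0.71 (SE 0.26) in HFD + MET against control, and its r over mice was 0.73 with Arntl.

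Hormones and stimuli that reset the clock act on glucocorticoid targets and immediate early genes. Of 12 glucocorticoid targets none passed an adjusted p of 0.05 by edgeR in any comparison, and 7 had an unadjusted P under 0.05 in HFD against control, against 24.2% of all genes, among them Mt1 (log2FC -2.14, SE 0.56), Fkbp5 (-1.54, SE 0.43), and Mt2 (-1.50, SE 0.58). Of 12 immediate early genes 11 were tested. In HFD against control, 7 had an unadjusted P under 0.05, against 24.2% of all genes. Of these, 6 were lower and 1, Nr4a3, was higher. Btg2 alone was called, against 2.43% of all genes, and fell by 1.30 on the log2 scale (SE 0.28, adjusted p = 0.0369, edgeR). In HFD + MET against HFD, Nr4a3 alone was called, against 0.013% of all genes. Nr4a3 fell by 3.02 (SE 0.39, adjusted p = 0.0133, edgeR), from 19.8, 35.2, 26.2, and 8.50 CPM to 2.86, 2.88, 2.83, and 2.48 CPM. In the control mice Nr4a3 was at 10.7, 6.24, 10.1, and 6.66 CPM. It was also past the threshold in the test of any difference among the 4 groups (adjusted p = 0.0183).

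At the level of transcripts, 37 of the 48 passed the filter, and none was called in HFD against control at an adjusted p of 0.05, against 0.0157% of 44573 transcripts tested. The smallest adjusted p was 0.159, and 12 of the 37 had an unadjusted P under 0.05, against 13.1% of all transcripts. Of the 12, 11 were higher, against 6.14% of all transcripts, and 1 was lower, against 6.91%, which was Per1-202 (log2FC -0.70, SE 0.31). Among the 11 were Nr1d2-201 (log2FC 0.56, SE 0.14), Tef-201 (0.53, SE 0.14), Tef-202 (1.28, SE 0.33), Dbp-201 (1.51, SE 0.44), and Dbp-205, which retains an intron (2.02, SE 0.51). Dbp-201 held 51.4% to 69.3% of the Dbp counts of a mouse. In control 2, the mouse with the lowest Dbp, 28.4% of the few Dbp counts were assigned to another form with a retained intron, Dbp-202, which held at most 1.87% elsewhere.

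Single mice stood apart in the split between forms of a gene. Per1-201 held 88.6% of Per1 counts in HFD + MET 4, where Per1-203 had none, and 9.73% to 50.3% in the other 15 mice. Arntl-204 held 41.3% of Arntl counts in HFD + RSV 3 and 1.24% to 7.49% in the others. The forms of a gene share most of their exons, so the assignment of reads between them is uncertain, and the sum per gene does not depend on it.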

How the data were processed

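RNA-seq of skeletal muscle from 16 mice was analysed. Per the labels, reads were trimmed with fastp and aligned with HISAT2 to GRCm38, without versions given, and according to the study's methods ribosomal RNA was removed and fragments were counted per transcript with StringTie. The authors deposited expected counts per transcript, which are whole numbers and not normalized, and FPKM values beside them, in an mRNA table of 82388 transcripts and a lncRNA table of 58245 transcripts. The deposited FPKM equal the count divided by transcript length and by the total of both tables, with no TMM factor visible.

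Counts were summed per gene name, after 4 transcripts split over lines were joined, filtered with filterByExpr (minimum count 10, minimum total 15), and scaled by TMM. All 16 mice entered 1 quasi-likelihood fit in edgeR 4.0.16 (R 4.3.3), with Benjamini-Hochberg adjustment over all 15364 genes. DESeq2 1.42.0 was an alternative. Each mouse is 1 replicate. The replicate numbers follow the order of the samples and only name mice. The mouse names in the labels hold a leading and a second number, whose meaning the labels do not give. The deviations of mice with the same second number in different groups had r between -0.36 and 0.30, above 0.1 in 6 of 20 pairs, and were not treated as paired. Exact permutation tests are two-sided. The fit was tested on simulated data for HFD against control with 15241 genes: it recovered 59% of genes changed by a log2FC of 1 and 99% of those changed by 2, with 9 calls among unchanged genes. The simulated spread came from the negative binomial dispersion of the fit alone. It held no extra spread of single genes, no outlying mice, and no label numbers. These shares may therefore differ from those in the real data.

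Total counts per mouse ranged from 20281801 to 34021101. All 10 members are given a log2FC in each comparison of 2 groups. From the lists of other clock genes, clock outputs, glucocorticoid targets, and immediate early genes, those past an adjusted p of 0.05 were named and at most 3 others per comparison by size of change, and for Arntl and Dbp the 5 genes highest and 5 lowest in r, of which 1 is not reported here. Bhlhe41, Nfil3, Pdp1, Usp2, Pdk4, and the single transcripts were chosen after their values were seen. The members and lists were chosen with earlier results of these data known.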

Additional observations from a re-analysis of the deposited data

Results flagged for a closer look

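In HFD + RSV 3, Per3 lay apart from its group, at 32.9 CPM against 48.2 to 51.5 CPM in the other 3 mice, and its gap was 0.851 of the range of log2 CPM in the group. This was 1 of 40 groups of 4 mice examined, and chance flags about 1 in 20 groups.

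Transcripts of the lncRNA table that lie inside clock genes were left out of the comparisons, and 3 of 13 were higher in all mice of a group than in any control mouse. Of the 13, 10 had a mean above 3 counts. Of these, 2 lay above all control mice in HFD, 0 in HFD + RSV, and 3 in HFD + MET, against 2.43%, 1.90%, and 1.85% of 25887 lncRNA transcripts with such a mean. NONMMUT050750.2 inside Per3 had a median of 2.33 CPM (relative to both tables) in control mice, 2.96 CPM in HFD mice, and 4.35 CPM in HFD + MET mice. NONMMUT050749.2 inside Per3 had a median of 6.09 CPM in control mice and 11.5 CPM in HFD + MET mice. NONMMUT024336.2 inside Tef had a median of 5.63 CPM in control mice, 6.79 CPM in HFD mice, and 6.71 CPM in HFD + MET mice. The strand of these transcripts is not given, so their reads and those of Per3 and Tef cannot be told apart. The differences were not tested.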

How the results depend on the processing

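In HFD against control, the count of clock genes called was 1. It was 3 (Dbp, Tef, and Nr1d2) with RLE size factors, with DESeq2, with only the 2 groups in the fit, and in the fit of the 12 mice without metformin. It was 0 without the filter on low counts, 0 to 3 without 1 mouse, and 3 (Cry1, Tef, and Nr1d2) without the 2 mice highest in brown adipocyte genes, an alternative chosen after seeing the data. In HFD + MET against control the count was 0, and it was 3 with DESeq2, 1 by the cut-offs of the methods, and 0 to 2 without 1 mouse. In HFD + RSV against control it was 0, and 1 with DESeq2 and by the cut-offs of the methods. For any difference among the groups it was 0, and 0 to 2 without 1 mouse. For transcripts in HFD against control it was 0, 4 by the cut-offs of the methods, and 0 to 2 without 1 mouse. Of the 45 pairs, 12 were called, 6 by Spearman rho, 4 to 15 without 1 mouse, 1 without the 2 mice highest in brown adipocyte genes, and 0 with the means of each leading label number within each group removed. The cause of these changes was not tested. For most of these alternatives the share of all genes, transcripts, or gene pairs called is not given here. The counts cannot be set against it. The comparisons HFD + RSV against HFD, HFD + MET against HFD, and HFD + RSV against HFD + MET had 0 calls under every alternative run. Adding all lncRNA counts inside the span of a gene, also chosen after seeing the data, moved no count of calls by over 1.5 times. Adding only same-strand lncRNA counts was not run, since the strand is not given.

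With the second label number as a replicate block, chosen after seeing the data, the count in HFD against control was 0, with Dbp at a log2FC of 1.76 (adjusted p = 0.109, edgeR), and no other count of calls changed. The label numbers are not stated to pair mice. Nr1d1 was then at 0.035 in HFD against control and 0.24 in HFD + RSV against control. With the leading label number as the block, also chosen after seeing the data, Per1 was at -0.17 and Cry2 at -0.097 in HFD + MET against control, and Per1 at 0.11 in HFD + RSV against HFD + MET. In HFD + MET against control, Arntl was then at -0.51, Per2 at 0.23, and Dbp at 1.715. In HFD + RSV against HFD + MET, Arntl was at 0.071 and Dbp at -0.018. Without 1 mouse, Arntl lay between -1.10 and -0.86 and between 0.52 and 0.77 in these comparisons. HFD + RSV and HFD + MET share number 6 alone, through HFD + RSV 4 and HFD + MET 2. Control and HFD + MET share no number and are linked through HFD + RSV. The leading label number as a block leaves no estimate for comparisons with HFD, whose mice alone carry number 7.

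Of 60 log2FC values of members, 17 changed sign under some alternative, none of them a call. Without 1 mouse, the ranges were -0.0070 to 0.33 for Arntl and -0.35 to 0.096 for Dbp, -0.17 to 0.042 for Per3, and -0.080 to 0.023 for Cry1 in HFD + RSV against HFD. They were -0.23 to 0.048 for Per1 and -0.17 to 0.19 for Nr1d1 in HFD + RSV against control, -0.026 to 0.22 for Per2 and -0.16 to 0.057 for Nr1d2 in HFD + MET against HFD, and -0.036 to 0.25 for Cry1 and -0.061 to 0.26 for Nr1d1 in HFD + MET against control. In HFD against control they were -0.0016 to 0.14 for Cry2 and -0.30 to 0.021 for Nr1d1, and in HFD + RSV against HFD + MET -0.20 to 0.018 for Nr1d1 and -0.19 to 0.024 for Nr1d2. Without the 2 mice highest in brown adipocyte genes, Per1 was at 0.0020 in HFD + RSV against control, Nr1d1 at -0.069 in HFD + MET against control, and Nr1d2 at 0.058 in HFD + MET against HFD. The r of Arntl with Nr1d1 ranged from -0.037 to 0.35 without 1 mouse, and that of Arntl with Nr1d2 was 0.057 with the means of leading label numbers removed.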
